A study of Mus musculus with 3 samples.

Results

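Replication-dependent histone genes encode the H1, H2A, H2B, H3 and H4 proteins that package newly made DNA. Their members here were all genes of the GENCODE M21 annotation whose symbol starts with Hist1h, Hist2h, Hist3h or Hist4h, in the older naming. The rule found 70 genes, of which 67 are protein-coding and 3 are pseudogenes, beside 21938 protein-coding genes in all. There were 6 H1, 20 H2A, 19 H2B, 12 H3 and 13 H4 genes. The rule used names alone and no measured value.

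These genes are transcribed in S phase, when DNA is copied, and most lack introns. Their mRNAs end in a conserved stem-loop in place of a poly(A) tail, and the stem-loop binding protein SLBP governs their processing, translation and decay. The coactivator NPAT, a target of cyclin E and CDK2, gathers with the clusters in histone locus bodies, and factors specific to a histone type, such as HINFP for H4 and Oct-1 (Pou2f1) for H2B, bind their promoters. H2A and H2B genes often lie head to head and share the stretch between their starts.

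DNase-seq, in which the enzyme DNase I cuts accessible DNA, was used to map open chromatin in whole embryonic liver at 13.5 days. All 3 biological replicates form 1 group with the strain label C57BL/6N,129, homozygous for a globin mutation that deletes HS2 and HS3, known as elements of the β-globin locus control region. The labels carry the same donor entry in each sample, and no unaltered liver is analysed here, so there is no comparison between genotypes. The spread between replicates is the only error, and p-values measure that spread, which may be technical. Fetal liver at this stage is a site of rapid red blood cell formation. Promoters of Gata1, Klf1, Epor and Nfe2, which define red blood cell precursors, had a peak in all 3 replicates. Of the hepatoblast markers, Alb and Afp had none and Hnf4a had one in replicate 2 only. The tissue was sampled in bulk, so fewer cells with an open promoter and less signal per cell cannot be told apart.

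The replicates differed in size. In replicates 1 to 3 the shorter list had 28209, 57314 and 41319 peaks, and the footprint lists held 126616, 194898 and 179791 entries. The sequenced depth is not given in the sources used here. A promoter counted as open if any annotated start had a peak of the shorter list within 500 bp. The promoter signal is taken from the strongest of these peaks, as the highest cut density after the authors' scaling to read depth.

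The genes lie in 8 blocks separated by more than 100 kb in mm10. The Hist1 cluster spans 2.22 Mb of chromosome 13, from 21715763 to 23934851, with 55 members in 4 blocks, while the pseudogene Hist1h2al stands alone on the same chromosome at 51202727 to 51203065. Hist2 holds 10 genes within 50.3 kb of chromosome 3, Hist3 holds 3 genes on chromosome 11 and Hist4h4 is the only gene of its group, on chromosome 6. All annotated transcripts of 65 of the 70 genes have 1 exon, and the median gene record is 532 bp long. Much of this sequence is repeated between copies. The median share of 32-base words that occur once in the genome, within the 1 kb around the start, was 63.3%. It was 89.9% on the upstream side and 37.0% on the downstream side, which holds the gene body. How reads that match several copies were placed is not given in the sources used here.

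Promoter sequences were taken from RefSeq on GRCm38.p6, where 62 of the 70 genes had an entry and Hist1h2be had 2, giving 63 promoters from 250 bases before to 50 bases after the start. Those with no entry were Hist1h2aj, Hist1h2al, Hist3h2bb-ps, Hist1h2bc, Hist2h2be, Hist1h3f, Hist1h3a and Hist2h4. The 6 sequences below show 1 promoter each of H1, H2A, H2B and H3 and 2 of H4, chosen with values known to show the elements by which the types differ. Each runs over the 200 bases up to the RefSeq start on the gene's own strand. Capitals mark TATAAA (the TATA box), CCAAT or its complement ATTGG, the octamer ATTTGCAT, the H1 box AAACACA, the GC box GGGCGG or its complement, and GGTCCG, a run of letters found in H4 promoters after their sequences had been seen. They lie on chromosome 13 at chr13:23738607-23738806 on the plus strand (Hist1h1c), chr13:21787249-21787448 on the minus strand (Hist1h2an), chr13:23571200-23571399 on the plus strand (Hist1h2bg), chr13:23752145-23752344 on the plus strand (Hist1h3b), chr13:23698459-23698658 on the minus strand (Hist1h4c) and chr13:22041363-22041562 on the minus strand (Hist1h4i).
Hist1h1c: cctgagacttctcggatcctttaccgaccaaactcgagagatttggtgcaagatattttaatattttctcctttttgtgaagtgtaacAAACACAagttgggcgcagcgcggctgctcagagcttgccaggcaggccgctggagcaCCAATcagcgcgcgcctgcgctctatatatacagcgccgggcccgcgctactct
Hist1h2an: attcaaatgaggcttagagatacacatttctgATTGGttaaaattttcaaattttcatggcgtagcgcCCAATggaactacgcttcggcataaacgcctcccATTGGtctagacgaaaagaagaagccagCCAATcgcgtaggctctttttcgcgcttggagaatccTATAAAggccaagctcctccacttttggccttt
Hist1h2bg: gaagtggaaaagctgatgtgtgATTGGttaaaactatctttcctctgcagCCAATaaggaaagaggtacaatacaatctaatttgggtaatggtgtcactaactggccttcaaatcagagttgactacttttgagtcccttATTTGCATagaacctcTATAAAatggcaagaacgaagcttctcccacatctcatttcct
Hist1h3b: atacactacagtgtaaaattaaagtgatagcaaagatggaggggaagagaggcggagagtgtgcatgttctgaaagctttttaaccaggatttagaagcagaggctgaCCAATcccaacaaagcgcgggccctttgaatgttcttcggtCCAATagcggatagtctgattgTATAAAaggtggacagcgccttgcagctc
Hist1h4c: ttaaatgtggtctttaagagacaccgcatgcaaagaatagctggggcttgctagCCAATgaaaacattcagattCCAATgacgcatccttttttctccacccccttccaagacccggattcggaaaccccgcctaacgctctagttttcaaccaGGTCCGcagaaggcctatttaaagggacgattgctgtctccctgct
Hist1h4i: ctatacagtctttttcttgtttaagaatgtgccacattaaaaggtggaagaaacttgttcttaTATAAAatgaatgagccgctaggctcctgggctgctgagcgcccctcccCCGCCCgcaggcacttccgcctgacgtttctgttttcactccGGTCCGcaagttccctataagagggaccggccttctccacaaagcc

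Search for motifs on both strands separated the histone types. CCAAT, the core of the NF-Y site, was in all 6 H1, 18 H2A, 17 H2B and 10 H3 promoters but in 3 of 12 H4 promoters, and in 38.1% of the 21200 other protein-coding promoters. GGTCCG was in 11 of 12 H4 promoters, in none of the H1 or H2A promoters, in 1 H2B and 1 H3 promoter, and in 10.4% of the others. These letters were picked after the H4 sequences had been seen, so their share in H4 promoters follows from the choice and tests nothing. The median position of the H4 matches was 46 bases before the start. The H1 box was in 5 of 6 H1 promoters, against 6.12% of the others, and Hist1h1a was the H1 gene without it.

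TATAAA was in 55.6% of the histone promoters (95% exact interval 42.5% to 68.1%) and in 12.5% of the others. Promoter windows of a head-to-head pair overlap, so the 41 TATAAA matches lie at 35 positions. The interval treats the promoters as separate, though those of a pair are not. Hist1h2bn, Hist1h2bp, Hist1h2bk and Hist1h2bf hold only a TATAAA match that also lies in the window of their H2A partner. The octamer, the site of Oct-1, was in 7 H2A and 7 H2B promoters, which is 22.2% of all 63 against 1.60% of the others. It was in no H1, H3 or H4 promoter. Windows of the genes of a pair overlap, so these 14 matches lie at 11 positions in the genome. The GC box was in 38.1% of histone promoters and in 46.2% of the others, and within the family in 9 of 12 H4 but 2 of 17 H2B promoters. CRE (TGACGTCA) was in 4 histone promoters, among them Hist1h4a and Hist1h4h, or 6.35% against 2.22%. Hist1h2ag and Hist1h2bj, also among them, are a head-to-head pair that holds the same match. The 95% exact interval of the share, 1.76% to 15.5%, includes the 2.22% of the others. ACGTCCG and TTTGGCGC, written for the HINFP and E2F sites, were in none of the 63 and in 1.38% and 0.637% of the others, which says only that these letters are not in these windows.

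**Figure D1:**
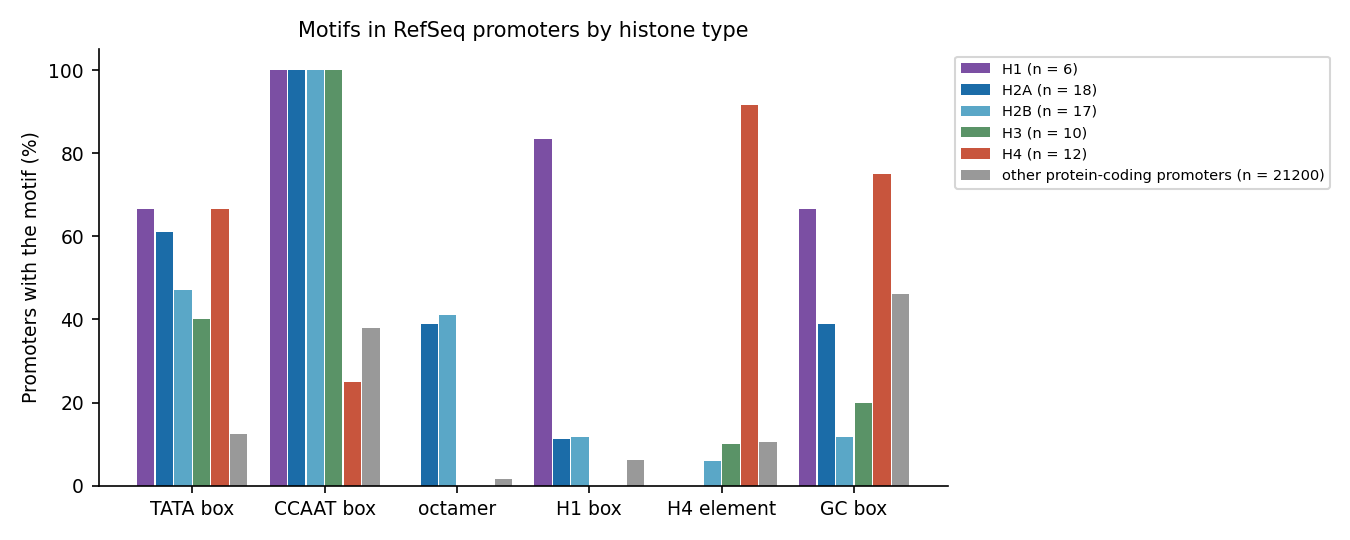
Share of RefSeq promoters holding each motif on either strand (y axis, %), by histone type and for other protein-coding promoters (bars, with the number of promoters in the legend). CCAAT stands at 100% for H1, H2A, H2B and H3 and at 3 of 12 promoters for H4. GGTCCG, shown as the H4 element, stands at 91.7% for H4 and was picked after the H4 sequences had been seen.

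Of the 70 genes, 61 (87.1%) had an open promoter in all 3 replicates, against a background of 50.9% of all protein-coding genes. The count was 61 with the longer peak lists too, where the background was 55.7%. By type these were 13 of 13 H4, 11 of 12 H3, 17 of 20 H2A, 15 of 19 H2B and 5 of 6 H1 genes. In each replicate 61, 62 and 61 members were open, and the share exceeded that of all protein-coding genes by 35.7, 31.1 and 31.7 percentage points (mean 32.8 ± 2.52, SD, n = 3). The 3 differences have the same sign, and the two-sided exact sign-flip test over replicates gave p = 0.25, the smallest it can give with 3.

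Of the 9 others, 8 had no peak in either list of any replicate. They were Hist1h1d, Hist1h2aa, Hist1h2ba, Hist1h2ao, Hist1h2ap, Hist1h2bq, Hist1h2br and Hist2h3c1. Hist3h2ba, an H2B gene, was open in replicate 2 alone, with a signal of 1.27, and its longer lists added a value of 0.738 in replicate 3. The 4 genes Hist1h2ao, Hist1h2ap, Hist1h2bq and Hist1h2br had no 32-base word around the start that occurs once in the genome, and no other member shared that. Hist2h3c1 had 3.30% such words, the same share as its copy Hist2h3c2, which was open through a peak at the edge of the window. Of the 61 open genes, 5 were not open in all 3 replicates within 250 bp of a start, namely Hist1h1t, Hist1h3a, Hist1h3d, Hist1h3f and Hist2h3c2.

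Hist1h1d differed from its type by annotation. Its GENCODE start lies 1770 bp from its RefSeq start, at position 23555032 of chromosome 13. At the RefSeq start the promoter was open, with signals of 6.65, 8.79 and 8.27 in replicates 1 to 3, so that all 6 H1 promoters were open at RefSeq starts. With RefSeq starts 54 of 62 histone genes were open in all 3 replicates, beside 49.6% of the other protein-coding genes with a RefSeq promoter.

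Hist1h2aa and Hist1h2ba, known as testis H2A and H2B, form a head-to-head pair at the far end of the Hist1 cluster. Their words were 95.1% and 82.4% unique, and neither had a peak or a footprint in any replicate. The testis H1 gene Hist1h1t had weak peaks, with signals of 1.47, 1.92 and 1.54. These were centred 450, 537 and 503 bp downstream of its start, near the edge of the window. Of 7 germ line histone variants encoded outside these blocks (H1foo, H1fnt, Hils1, H2bfm, H2al1a, H2al2a and H2afb1), none had a peak in the shorter lists, and H1fnt had 1 in a longer list, at 0.403 in replicate 1. H3f3c, also listed, had no match in the annotation.

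Most other protein-coding genes between the Hist1 genes had no promoter peak in all 3 replicates. In the 2.22 Mb, 48 of 55 histone genes and 5 of 49 other protein-coding genes were open in all 3 replicates, beside the 50.9% of all protein-coding genes. The 5 were Abt1, Btn1a1, Prss16, Zfp184 and Zfp322a. The 29 histone genes of the block from 23531050 to 23764406 included 28 that were open.

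**Figure D2:**
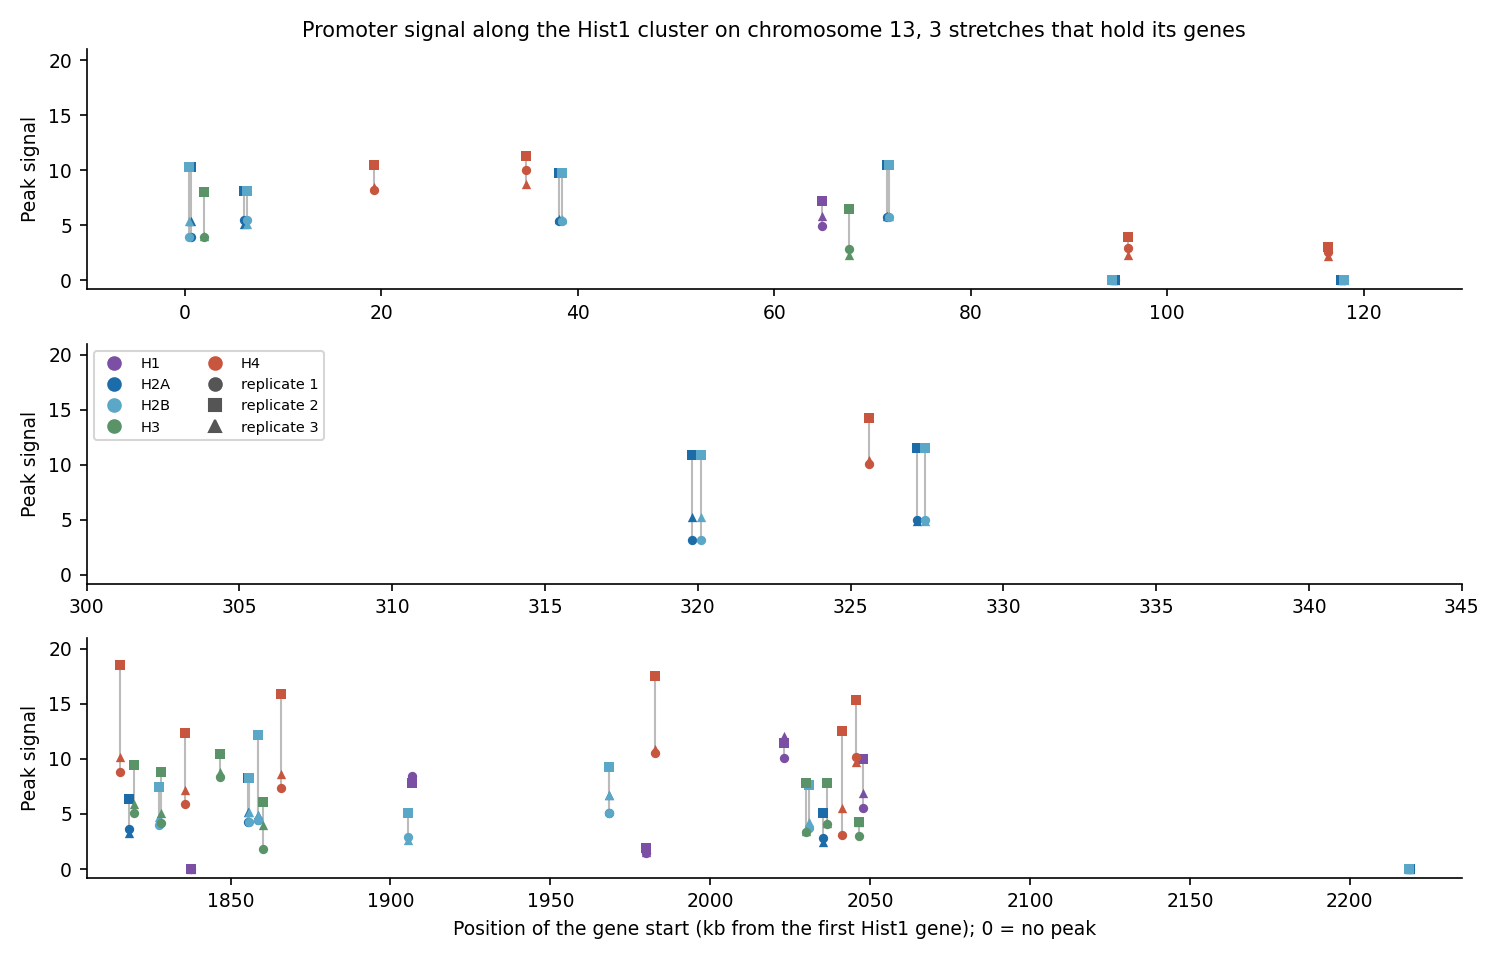
Promoter peak signal (y axis) of the Hist1 genes against the position of the gene start in kb from the first gene (x axis), in 3 stretches; colours give the type, symbols the replicate, grey lines join the replicates of a gene and 0 means no peak. H4 genes hold most of the highest values, and the squares of replicate 2 lie above the other symbols at most genes.

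H4 promoters carried the strongest signal of the 5 types. The median over open H4 genes was 8.18, 12.5 and 8.63 in replicates 1 to 3 (mean 9.78 ± 2.40). It was highest in each replicate. H3, the partner of H4 in the nucleosome, had 4.11, 7.81 and 4.30, and H1, the linker histone, had 5.56, 7.80 and 6.95. H2A had 4.26, 9.28 and 5.18, and H2B had 4.26, 9.54 and 5.18.

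The difference between H4 and H3 was 4.38 ± 0.336, with H4 higher in 3 of 3 replicates. Against H2A it was 3.54 ± 0.337, against H2B 3.46 ± 0.455 and against H1 3.01 ± 1.57, each with p = 0.25 in the exact sign-flip test and 0.417 after Benjamini-Hochberg adjustment over the 10 pairs of types. H2A exceeded H3 by 0.833 ± 0.662 and H2B exceeded H3 by 0.918 ± 0.789, also in 3 of 3 replicates and with the same p-values. Among members with at least 80% unique words H3 (6.02) was above H2A (5.08). That H3 value is from 1 gene, Hist1h3f, whose peak lies near the edge of the window. H2A had 3 such members, and Hist1h2aa among them had no peak. H1 ranked second in replicates 1 and 3 and last in replicate 2, where H1 minus H3 was only -0.00836. The H1 median leaves out Hist1h1d, which had 8.79 in replicate 2 at its RefSeq start, and includes the edge peak of Hist1h1t. H2B and H2A, which share peaks, differed by 0.0851 ± 0.147. Genes of a type share sequence and are not replicates.

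Among H4 genes Hist1h4c was highest by the mean of the 3 replicates, with 10.6, 17.5 and 10.9 in replicates 1 to 3, while Hist1h4h and Hist2h4 exceeded it in replicate 2. Hist1h4h had 8.83, 18.6 and 10.2, and Hist1h4a had 10.2, 15.4 and 9.73. Replicate 2 was the highest sample at all 13 H4 genes. The lowest were Hist1h4m (2.91, 3.98 and 2.31) and Hist1h4n (2.60, 3.04 and 2.19), whose words were 3.81% and 2.89% unique. These lie beside the H2A and H2B copies with no peak. Outside Hist1, Hist2h4 had 7.89, 17.9 and 8.73 and Hist4h4 had 8.18, 11.9 and 7.84. Both overlapped the range of the Hist1 H4 genes.

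Among H1 genes Hist1h1c had 10.1, 11.5 and 12.1, and all 3 values lay above those of every other H1 gene. Hist1h1e had 8.46, 7.80 and 8.29, and Hist1h1a had 5.56, 9.97 and 6.95. Hist1h1b lay between 4.98 and 7.22. Of the H3 genes Hist1h3e was highest, with 8.33, 10.5 and 8.84. Hist1h3g had 5.13, 9.46 and 5.94, and Hist1h3f had 4.15, 8.83 and 5.09, so their values in replicates 1 and 3 lay below all 3 of Hist1h3e. The peaks of Hist1h3f were centred 539, 409 and 499 bp downstream of its start, near the edge of the window. In the Hist2 cluster, Hist2h3b had 4.95, 5.78 and 5.35 and Hist2h3c2 had 4.62, 6.31 and 4.47, from a peak centred 524 bp upstream of its start in each replicate.

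The strongest histone promoter was that of Hist2h2aa2, an H2A gene of the Hist2 cluster, with 17.5, 21.1 and 19.6. Its words were 27.3% unique. In replicate 1 it stood at the 99.8th percentile of all open protein-coding promoters, in replicate 2 at the 98.0th and in replicate 3 at the 99.96th. Its near copy Hist2h2aa1 had 4.01, 5.87 and 4.44, with no overlap between the genes. The next H2A genes by the mean were Hist1h2an (5.76, 10.5 and 5.88) and Hist2h2ac (4.22, 11.1 and 6.34), and both lay below the H4 median in each replicate.

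By the mean Hist2h2bb led the H2B genes with 8.38, 10.2 and 7.99, though not in replicate 2. Hist1h2bp and Hist2h2be followed, and each has the values of its H2A partner, Hist1h2an and Hist2h2ac, because the strongest peak is the same. Hist2h2ab had 3.74, 4.49 and 4.12 and shares its peak with Bola1, a gene of mitochondrial iron-sulfur metabolism that starts 156 bp away. In Hist3, Hist3h2a and the pseudogene Hist3h2bb-ps shared 1 peak of 4.16, 9.17 and 4.81, and Trim17 shared it too. The lone pseudogene Hist1h2al was open, with 5.61, 7.14 and 6.34.

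**Figure D3:**
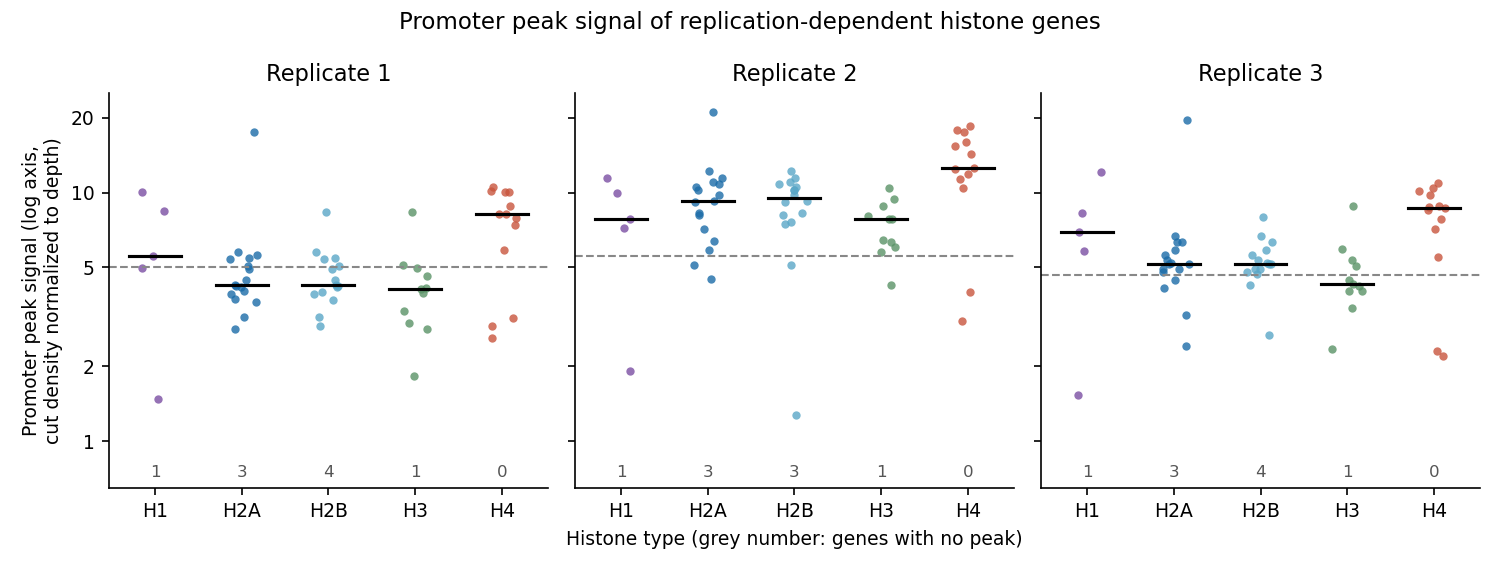
Promoter peak signal of each open gene (points, log y axis) by histone type in the 3 replicates, with the median of each type (black bar), the median of all open protein-coding promoters (dashed line) and the number of genes with no peak (grey). H4 has the highest median in each panel, and in replicate 2 all 5 type medians lie above the dashed line.

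Over the whole family, open histone promoters lay below the level of all open promoters in replicate 1 and above it in replicates 2 and 3. Their median signal was 4.62, 9.37 and 5.35 in replicates 1 to 3 (mean 6.45 ± 2.56), beside 5.03, 5.56 and 4.64 for all open protein-coding promoters. The median member stood at the 45.7th, 71.0th and 57.4th percentile. The mean percentile was 58.0 ± 12.6, and the exact sign-flip test against 50 gave p = 0.5.

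Replicate 2 had the highest signal at most histone genes. Of the 61 genes open in all 3, 58 had their highest value in replicate 2, which is 95.1% against 75.2% of the 11103 other protein-coding genes open in all 3. The median ratio of replicate 2 to the mean of replicates 1 and 3 was 1.78, and it was 1.28 for the others. Over 2 the ratio stood at 18 genes, or 29.5%, against 4.18%. Of these, 6 were H2A genes and 6 were their H2B partners, which have the same strongest peaks. The 61, 62 and 61 members open in replicates 1 to 3 had 50, 51 and 50 distinct strongest peaks. For other protein-coding genes these were 10067, 11395 and 10940 peaks at 11230, 12558 and 12116 open genes. The shares count genes, which are therefore not separate measurements. The ratio was 1.28 for H1, 1.54 for H4, 1.81 for H2A, 1.82 for H2B and 1.88 for H3. It ran from 0.932 at Hist1h1e to 2.90 at Hist1h4b, which had 3.12, 12.5 and 5.51.

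Replicate 2 is also the library with the most peaks and footprints. Whether that bears on the ratio was not tested. With 1 library showing it, the ratio has no replicate of its own. The ratio of replicate 3 to replicate 1 was 1.11 for histone genes and 0.991 for the others. Across the 61 genes Pearson's r of log2 signal between replicates was 0.742 for 1 and 2, 0.909 for 1 and 3 and 0.836 for 2 and 3, against 0.957, 0.981 and 0.959 across other genes. These are descriptions across genes, which share peaks and sequence.

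Head-to-head promoters were found by pairs of genes whose starts point away from each other with at most 1000 bp between them. There were 15 such pairs within the family. Of these, 14 joined an H2A with an H2B gene and 1 joined Hist1h2bh with the H3 gene Hist1h3f. The median distance between the starts was 251 bp. A peak within 500 bp of both starts was present in all 3 replicates at 11 pairs. Among 1218 pairs of other protein-coding genes, a median of 106 bp apart, it was present at 1038.

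By the mean of the 3 replicates the highest pair was Hist1h2an/Hist1h2bp, with starts 243 bp apart and 5.76, 10.5 and 5.88, though other pairs exceeded it in replicates 2 and 3. Hist2h2ac/Hist2h2be, 239 bp apart, had 4.22, 11.1 and 6.34, and Hist1h2bf/Hist1h2ad, 185 bp apart, had 4.45, 12.2 and 4.93. In each of these, replicate 2 exceeded replicates 1 and 3. The 3 lowest pairs, Hist1h2bq/Hist1h2ao, Hist1h2ap/Hist1h2br and Hist1h2ba/Hist1h2aa, had no peak. Hist1h2bh/Hist1h3f, with 660 bp between its starts, had a peak near both starts in replicate 2 only, at 7.50, while each gene was open by itself in all 3.

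No histone pair had a peak that covered both starts in all 3 replicates. Among other pairs with 100 to 700 bp between the starts, a median of 185 bp apart, 151 of 582 had one, and among all 1218 it was 561. Taken singly, the replicates had such a peak at 1 of 11, 5 of 12 and 2 of 11 open histone pairs. The strongest peaks of histone genes with 1 start had median widths of 240, 260 and 260 bp. That is near the median of 251 bp between the starts of histone pairs. For other genes the widths were 260, 220 and 240 bp. Histone and other pairs were not matched by spacing, and the part of spacing and peak width in these counts was not tested. More than 1 peak lay near both starts at 10 of 11 pairs in replicate 1, 2 of 12 in replicate 2 and 9 of 11 in replicate 3. In the other pairs 100 to 700 bp apart the share with more than 1 peak was 32.7%, 28.6% and 31.6%. The centre of the strongest peak lay a median of 252, 51.8 and 109 bp from the midpoint of the histone pairs. For the other pairs of that spacing these distances were 75.5, 47.0 and 59.0 bp.

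The deposited false discovery rate (FDR), which scores how dense the cuts are locally, was read as −log10 and divided by its highest value within 600 bp to give the shape of each site. At the 11 open H2A-H2B pairs the median value within 50 bp of the midpoint was 0.432, 0.877 and 0.643 in replicates 1 to 3. At 200 to 350 bp from the midpoint it was 0.552, 0.290 and 0.409. The flanks were higher than the centre at 8 of 11 pairs in replicate 1, 0 of 11 in replicate 2 and 3 of 11 in replicate 3. The mean profile dipped between the starts in replicate 1 and less so in replicate 3, and had a single summit in replicate 2. The windows were chosen with the peak positions known.

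At Hist1h2ae/Hist1h2bg, whose H2B promoter is printed above, the centre value was 0.0599, 0.812 and 0.160 in replicates 1 to 3. Its flanks had 0.599, 0.469 and 0.361. The 200 printed bases held 0 footprints in replicate 1, 5 in replicate 2 and 3 in replicate 3. Hist1h2bf/Hist1h2ad had the highest centre value of the pairs in replicates 1 and 3, with 0.902, 0.871 and 0.886, and showed no dip.

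Other sites showed less difference between the replicates. At 507 to 520 open pairs of other genes with 100 to 700 bp between the starts, the centre value was 0.830, 0.866 and 0.850, and the flanks were higher at 19.5%, 16.3% and 18.8% of them. At the 13 H4 starts the centre value was 0.900, 0.868 and 0.902 and the flanks were higher at none. No test was made, since each shape comes from 1 library.

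**Figure D4:**
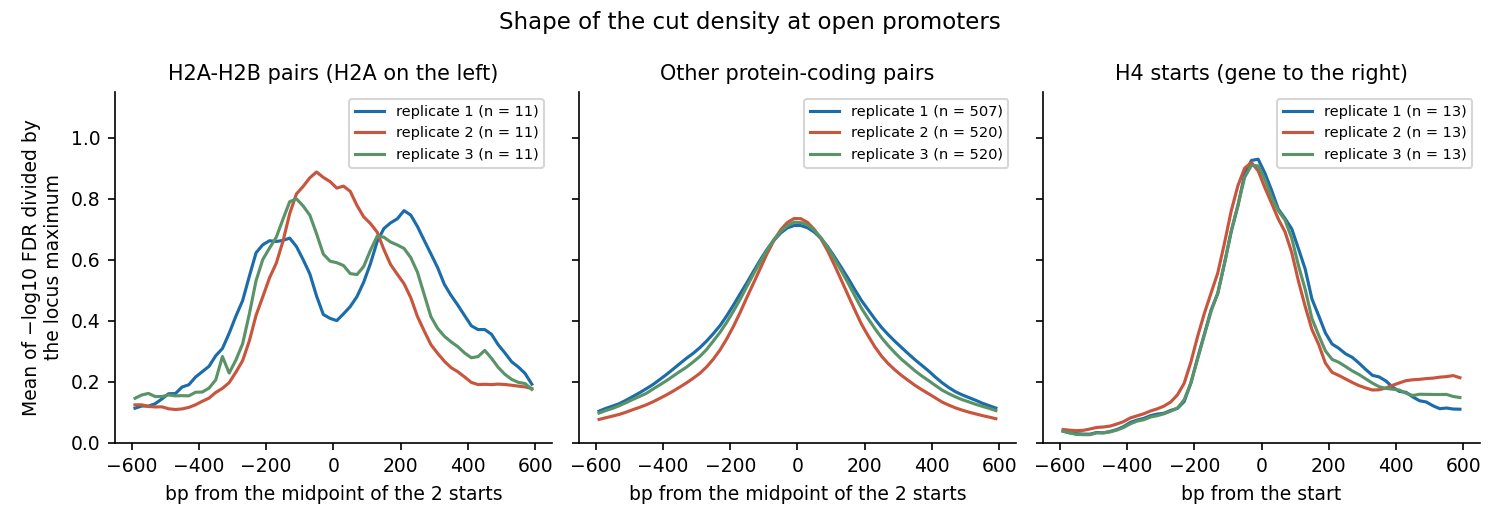
Mean of −log10 FDR divided by the locus maximum (y axis) against the distance from the midpoint of a pair or from the start (x axis, bp), for open H2A-H2B pairs, other open pairs and H4 starts in each replicate. The pairs show a dip at 0 in replicate 1, a shallower one in replicate 3 and a summit in replicate 2, while the 3 lines lie close together in the other panels.

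Footprints are short stretches inside open chromatin that are spared from cutting. A footprint lay within 500 bp of a start in all 3 replicates at 60 of 70 histone genes, against a background of 53.1% of protein-coding genes. The median number per promoter was 7, 10 and 9 in replicates 1 to 3, beside 2, 3 and 3 over all protein-coding genes, open or not. Gene lists given below, in which every matched gene was open, had similar medians. These were 9, 9 and 9 for regulators of histone gene transcription and for chaperones and import factors. For 3′ end processing and mRNA turnover they were 8, 9 and 9. Hist1h3f was the gene with an open promoter that had no footprint in replicate 1, and it had 4 and 5 in replicates 2 and 3.

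From the RefSeq start, footprints of open histone promoters were most frequent in the 10 bases that begin 30 bases before it. They covered 40.2%, 58.0% and 57.5% of promoters there. Other promoters had their highest share in the 10 bases that begin 20 bases before the start, at 27.4%, 30.4% and 27.9%. At H4 promoters the bin at 30 bases reached 70.0%, 75.8% and 70.8%, and at H1 promoters 70.0%, 71.7% and 83.3%. At H2A promoters the highest bin began 90, 60 and 60 bases downstream of the start in replicates 1 to 3. Of the 12 TATAAA matches of H2A promoters, 4 also lie downstream of the RefSeq start (Hist1h2ak, Hist1h2ah, Hist1h2ad and Hist2h2aa1), and the part of these starts in the position was not tested.

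**Figure D5:**
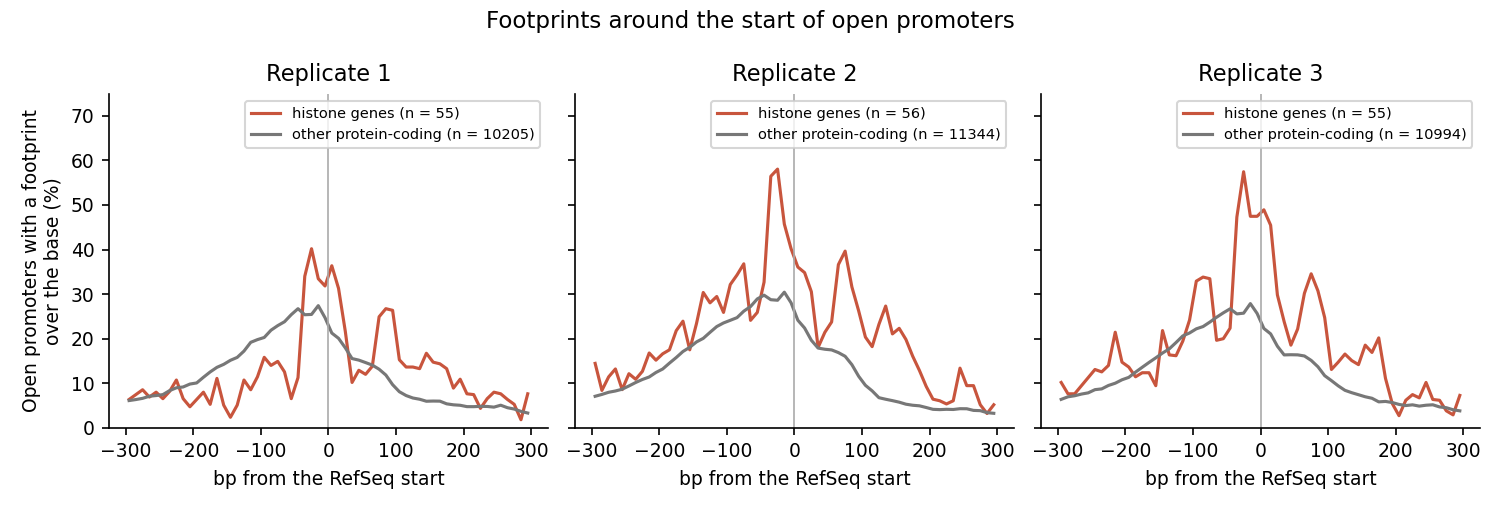
Share of open RefSeq promoters with a footprint over the base (y axis, %) against distance from the start (x axis, bp, means of 10 bases), for histone genes and other protein-coding genes in each replicate. The histone line has its summit just upstream of the start, at 40.2%, 58.0% and 57.5%, above the other line at that place.

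TATAAA matches anywhere in the promoter sequence were more often in a footprint at histone than at other promoters in each of the 3 replicates. The matches were not paired by distance from the start. Over all promoters, open or not, their median position was -39 bases in histone promoters and -107 bases in the others. The part of position in the difference was not tested. With each position counted once, 15 of 31, 23 of 33 and 20 of 31 TATAAA matches in open histone promoters overlapped a footprint, against 90 of 542, 127 of 667 and 108 of 605 in other open promoters. The same letters read backwards did so at 3 of 16, 7 of 18 and 2 of 16 positions in histone promoters. In the printed sequences the TATA boxes of Hist1h2an and Hist1h3b, 33 and 29 bases before the start, were in a footprint in all 3 replicates. That of Hist1h2bg, 43 bases before the start, was in one in replicates 2 and 3. Of the 11 GGTCCG matches in H4 promoters, 9, 10 and 8 overlapped a footprint, those of Hist1h4c and Hist1h4i in each replicate. GGTCCG in other promoters did so at 23.9%, 30.7% and 26.2% of positions. Position was not matched here either, with medians of -46 bases in H4 promoters and -84 bases in the others.

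CCAAT boxes overlapped a footprint at 13.4%, 36.6% and 29.9% of positions, beside 24.8%, 29.9% and 28.8% in other promoters. Replicate 1 was lowest at the histone genes. Of the 10 octamer positions in open histone promoters, 0 were in a footprint in replicate 1, 3 in replicate 2 and 2 in replicate 3. The H1 box of Hist1h1c was in a footprint in all 3 replicates and that of Hist1h1e in none.

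Genes that serve the replication-dependent histones were open at nearly every promoter. All 13 listed regulators of histone gene transcription were open in all 3 replicates, against the background of 50.9%. The highest by the mean were Nfya, a subunit of the CCAAT-binding factor NF-Y, with 16.9, 28.9 and 16.2, and Ccne1, which encodes cyclin E, with 16.1, 23.1 and 16.7. Npat had 12.5, 19.7 and 10.8, and in each of these genes replicate 2 was the highest sample.

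All 16 matched genes of 3′ end processing and mRNA turnover were open in all 3 replicates. Upf1, a helicase needed for histone mRNA decay, had a mean of 15.4 ± 4.03 (SD, n = 3) with replicate 2 highest, and Lsm11, a subunit of the U7 snRNP, had 13.8, 14.4 and 13.8. Zcchc6 had no match in the annotation. All 14 histone chaperones and import factors were open too. Chaf1b, a subunit of the chromatin assembly factor CAF-1, had 12.98, 18.1 and 14.4, and Nap1l4, a nucleosome assembly protein, had 10.7, 19.2 and 10.98.

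Of 11 replacement histone genes, which are expressed outside S phase as well, 9 were open in all 3 replicates. H2afx, the variant phosphorylated at DNA breaks, had 13.4, 21.6 and 13.8, and H2afv, an H2A.Z gene, had 10.99, 19.4 and 10.5. Both lay above the median H4 gene in each replicate. The other two, H1fx and H2afy2, were open in replicate 3 alone, at 0.799 and 0.784. In the longer lists H2afy2 had a peak in all 3 replicates, at 0.504, 0.402 and 0.784. H1fx had one there in replicates 2 and 3, at 0.628 and 0.799.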

How the data were processed

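DNase-seq of embryonic liver was used as deposited for 3 replicates of 1 group. Per the notes deposited beside the files, each sample had its own peaks, footprints and false discovery rate, made from filtered mm10 alignments. What the aligner, the callers and the depth were is not given in the sources used here. Peak signal, as the authors deposited it, is the cut density scaled to read depth. The deposited p-value type of measure, a false discovery rate, is listed below 0.05, and bases not listed were set to 0 on the −log10 scale. Deposited footprints all carry 0.01.

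Genes came from GENCODE M21. Members and lists, and the genes named, were chosen with earlier results of these data known. Named with values were the 3 strongest members of each type, every member not open in all 3 replicates or outside the Hist1 cluster, the testis members, the 3 strongest and 3 weakest pairs, and in other lists the 2 strongest genes and every gene not open. Two-sided exact sign-flip tests ran over replicates, whose smallest p is 0.25. Shares carry exact (Clopper-Pearson) 95% intervals, which cover counting error alone and treat overlapping promoters as separate. Search functions were tested on simulated data. Alternatives were the longer list, windows of 250 and 1000 bp, gene starts, stronger peaks, protein-coding members, unique sequence, pair distances, motif spans, backward motifs and each replicate left out. Python 3.11.15, NumPy 2.4.6 and SciPy 1.17.1 were used.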

Additional observations from a re-analysis of the deposited data

How the results depend on the processing

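Of the 129 values computed under alternatives, 119 were rated the same as the main value. Those rated the same stayed within the spread between replicates, the 95% interval of a share or 1.5 times the count, except for 1 result. The excess share of open members, 32.8 ± 2.52 points, ran from 28.1 with the longer lists to 40.9 with the upper 50% of peaks. The H4 median was the highest of the types under each alternative, but the order below it changed: without replicate 3 H1 (6.68) fell below H2A (6.77) and H2B (6.90). The count of open members was 61 without any 1 replicate, 56 with a window of 250 bp, 59 with the upper 50% of peaks and 54 with RefSeq starts, which cover 62 genes. It was 15, and that of members with a footprint 14, among the 18 members with at least 80% unique words, since only those were counted. Pairs with 1 peak over both starts ranged from 0 to 1 when 1 replicate was left out. The TATA box fell from 55.6% to 38.1% of promoters in the 150 bases before the start. Read backwards, TATAAA gave 22.2%, CCAAT 49.2%, the octamer and CRE 0% and GGTCCG 3.17%, against 55.6%, 85.7%, 22.2%, 6.35% and 20.6%, and the HINFP letters gave 4.76% against 0%. Backwards, the GC box gave 31.75% against 38.1% and the H1 box 12.7% against 14.3%, both within the interval of the motif. The E2F letters gave 0% either way. The GC box, H1 box, HINFP and E2F letters read backwards count among the 119. For them that rating means only that the motif and its reverse were not told apart over all histone promoters. The GC box stood at 9 of 12 H4 promoters either way. In H1 promoters the H1 box stood at 5 of 6 and its letters backwards at 1 of 6. The RefSeq starts, the count with any unique word (61) and GGTCCG were chosen after seeing the data. The mean percentile of 58.0 fell to 50.9 with the upper 50% of peaks and to 51.5 without replicate 2. No paired analysis was possible because there is 1 group. Depth is unknown, so an absent peak is not shown to be closed chromatin, and sequence shared by copies limits what any of their peaks can say.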
